A study of Homo sapiens with 6 samples.

Results

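A set of 10 genes around PRMT1, the protein arginine methyltransferase that makes most of the asymmetric dimethylarginine of a human cell, were followed in MM.1S cells after PRMT1 was knocked down. BTG1 and BTG2 are binding partners of PRMT1. TDRD3 and SMNDC1 carry Tudor domains that read methylated arginine, and JMJD6 is an oxygenase for which arginine demethylation has been proposed. MAT2A, MAT2B, AHCY, MTAP and MTR belong to the supply and recycling of S-adenosylmethionine (SAM), the methyl donor. They were taken by gene symbol, and each of the 10 symbols matched 1 of the 58735 genes measured.

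The cells, MM.1S, are a long-established line of human multiple myeloma, a malignancy of plasma cells. RNA sequencing compared 3 control libraries from cells given a non-targeting siRNA (si-NC) with 3 PRMT1 knockdown (PRMT1 KD) libraries from cells given siRNA against PRMT1. In the study's methods the siRNA concentration was 100 nM and cells were collected 72 h after transfection. All 6 libraries came from the same line. The siRNA behind the KD libraries is not named in the sources used here. The study's statistics section describes 3 "dependent" biological replicates per experiment but does not say whether they were separate cultures. The p-values therefore measure the spread between these libraries only.

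PRMT1 transfers methyl groups from SAM to arginines in histones and RNA-binding proteins, and BTG1 and BTG2 bind it while also recruiting the CCR4-NOT deadenylase to messenger RNA. MAT2A makes SAM from methionine and ATP, with MAT2B as its regulatory subunit. Each methyl transfer leaves S-adenosylhomocysteine, an inhibitor of methyltransferases that AHCY hydrolyses, and MTR remethylates the resulting homocysteine to methionine. MTAP recovers methionine from the methylthioadenosine left by polyamine synthesis, a compound that inhibits PRMT5.

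The study lists 3 purchased siRNAs against PRMT1, and they are shown because each could also pair in part with the transcripts studied here. The target sequences are given 5′ to 3′ as the message strand. The 7 bases in capitals pair with bases 2 to 8 of the guide, the seed.
si-PRMT1-1 target: gcaactccatgTTTCATAa
si-PRMT1-2 target: agacggtgttcTACATGGa
si-PRMT1-3 target: ccatcgacctgGACTTCAa
For the 10 genes, only protein-coding transcripts with an annotated 3′ UTR were searched, and none of these held any of the 3 full targets. The 7 bases of si-PRMT1-1 occurred in an annotated 3′ UTR of 5 of the 10 genes (BTG1, MAT2B, MTAP, SMNDC1 and MTR), against 22.8% of 10042 tested genes with an annotated 3′ UTR. Those of si-PRMT1-2 occurred in 1 (MAT2B), against 10.1%, and those of si-PRMT1-3 in 1 (MTAP), against 14%. BTG2, MAT2A, AHCY, TDRD3 and JMJD6 held none of these sites. A seed match is a description of the letters only, and its part in the values was not tested.

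MAT2A is known for a control of its own message by SAM. Its 3′ UTR carries hairpins bound by METTL16, an RNA methyltransferase that uses SAM, and they are shown because the knocked-down enzyme draws on the same donor. The letters TACAGAGAA and TACAGAAAA were searched on the message strand of the annotated 3′ UTRs (GENCODE release 29, GRCh38, MAT2A on the plus strand). Each site is printed as DNA with 10 bases on either side, and the motif is in capitals.
MAT2A site 39 bases after the stop codon, chr2:85543802-85543830: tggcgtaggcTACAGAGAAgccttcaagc
MAT2A site 826 bases after the stop codon, chr2:85544589-85544617: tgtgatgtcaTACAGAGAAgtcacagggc
MAT2A site 1011 bases after the stop codon, chr2:85544774-85544802: ctggtgtagcTACAGAGAAaccagcttcc
MAT2A site 1126 bases after the stop codon, chr2:85544889-85544917: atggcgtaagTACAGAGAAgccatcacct
MAT2A site 1241 bases after the stop codon, chr2:85545004-85545032: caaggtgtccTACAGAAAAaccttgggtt
MAT2A site 1349 bases after the stop codon, chr2:85545112-85545140: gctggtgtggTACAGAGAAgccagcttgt
The 1508-base MAT2A 3′ UTR held TACAGAGAA 5 times and TACAGAAAA 1 time, 6 sites in all. Of the 10042 genes compared, 2.07% held the first motif and 3.37% the second. MAT2A was the only 1 of them with as many as 6 sites, and no other of the 10 genes held either motif. METTL16 was expressed, at 24.5 ± 0.262 FPKM (fragments scaled to gene length and library size, with SD, n = 3) in control and 26.3 ± 0.872 in PRMT1 KD libraries. The log2 change of 0.10 did not pass the test (limma, adjusted p = 0.270). All 3 PRMT1 KD libraries lay above all 3 control libraries, as in 13.6% of all genes tested.

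**Figure D1:**
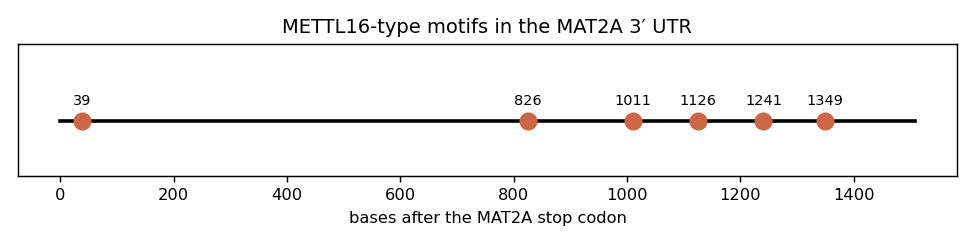
The horizontal axis is the distance in bases after the MAT2A stop codon, the black line is the 1508-base 3′ UTR and each point is 1 motif. The first of the 6 motifs lay 39 bases after the stop codon and the other 5 between 826 and 1349.

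The libraries held 14439217 to 16465026 reads on genes, worked back from FPKM and gene length. Of the 13585 genes with a mean of at least 1 FPKM, 279 (2.05%) differed at an adjusted p under 0.05 (limma on log2(FPKM + 1), Benjamini-Hochberg), 145 (1.07%) higher and 134 (0.986%) lower in PRMT1 KD. That split was 82 to 139 after scaling libraries to the same median and 222 to 133 as TPM. All 9 plasma cell markers were present, from CD38, the lowest at 1.82 to 2.57 FPKM, to XBP1 and TNFRSF17 above 255 FPKM. Of the 9, SLAMF7 was called lower, at 38.0 ± 0.961 FPKM in control and 23.8 ± 1.17 in PRMT1 KD (SD, n = 3). Its log2 change was -0.65 (limma, adjusted p = 0.00515). The T cell gene CD3E stood at 32.1 to 39.0 FPKM while CD2 did not pass 0.0369, and the summed T cell list was 35.7 to 39.4 in control and 39.8 to 42.5 in PRMT1 KD libraries. Reads on the mitochondrial genome were 6.13 to 6.23% in control and 5.39 to 5.90% in PRMT1 KD libraries. The part of these differences in the values below was not tested.

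PRMT1 itself was at 61.7, 62.8 and 58.9 FPKM in control replicates 1 to 3 and at 13.3, 14.0 and 12.5 in PRMT1 KD replicates 1 to 3. The KD mean was 21.7% of the control mean, a log2 change of -2.13 (adjusted p = 2.77e-05), the smallest p of all genes tested.

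All 10 genes were above the expression minimum, so none dropped out of the test. On the deposited FPKM none of the 10 passed an adjusted p under 0.05 by limma, against 2.05% of all genes. At an unadjusted p under 0.05 there were 3 (AHCY, MAT2A and MTR), 30% against 19.5% of all genes. AHCY was called after quantile normalization, as TPM and by voom on the reads, fits that called 2.39%, 2.61% and 6.55% of all genes. In 4 genes, AHCY, MAT2A, MAT2B and MTR, all 3 PRMT1 KD libraries lay above all 3 control libraries. Non-overlap was seen in 25.9% of all genes in either direction and in 13.6% with the KD libraries higher. None of the 10 lay lower without overlap. Exact permutation tests, two-sided, gave 0.1, the smallest p that 3 against 3 allows, for those 4 genes and 0.2 to 0.8 for the other 6. The median log2 change of the 10 was 0.12, with 7 above 0 and 3 below, beside a median of 0.0095 for all genes tested. The 95% intervals of the 10 changes, on the scale of FPKM + 1, lay between 0.858-fold (JMJD6) and 1.47-fold (TDRD3). Whether the 10 stand apart from other genes was not tested, because they were not an independent choice.

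The synthesis of SAM had its catalytic subunit high and its regulatory subunit low. MAT2A, at chr2:85539165-85545280 on the plus strand of GRCh38, was at 98.7, 104 and 99.5 FPKM in control and 106, 113 and 110 in PRMT1 KD libraries. Every KD library was above every control library. The log2 change was 0.12 (95% interval 0.02 to 0.23, SE 0.0450, adjusted p = 0.197), and the smallest p an exact permutation test of 3 against 3 allows, 0.1, was reached. At 7323 to 7831 reads a library, MAT2A ranked 325 of 13585 genes in control. It shares 558 exon bases, 12.4% of its exon length, with GGCX on the opposite strand, and whether counting used strand is not stated. None of the 15 alternatives brought MAT2A past the threshold (adjusted p 0.0547 to 0.471). GGCX was at 4.60 FPKM in control and 4.64 in PRMT1 KD libraries, with 602 to 705 reads.

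MAT2B, at chr5:163503114-163519336 on the plus strand, was at 8.93, 8.71 and 8.87 FPKM in control and 9.97, 8.99 and 10.1 in PRMT1 KD libraries. The groups did not overlap, and KD replicate 2 lay close to the controls. Its log2 change came to 0.12 (95% interval -0.02 to 0.25, adjusted p = 0.327). The log2 ratio of MAT2A to MAT2B, each as FPKM + 1, was 3.37 ± 0.0575 in control and 3.38 ± 0.124 in PRMT1 KD libraries (SD, n = 3), a difference of 0.0067 with an exact permutation p of 0.9. Without the added 1 the FPKM ratio was 11.05, 11.95 and 11.22 in control and 10.61, 12.61 and 10.97 in PRMT1 KD libraries, and the groups overlapped. FPKM takes each gene's whole exon length, which for MAT2B was 2.45 times its principal transcript and for MAT2A 1.59 times.

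AHCY, the hydrolase of S-adenosylhomocysteine, lay nearest to the threshold. At chr20:34280268-34311802 on the minus strand, it was at 73.1, 73.9 and 69.1 FPKM in control and 82.6, 84.3 and 80.6 in PRMT1 KD libraries. The lowest KD library was above the highest control library. Its mean went from 72.006 ± 2.54 to 82.5 ± 1.84 (SD, n = 3), 115% of control, with a log2 change of 0.19 (95% interval 0.09 to 0.30, SE 0.0439, unadjusted p = 0.00305, adjusted p = 0.0786). By p it ranked 525 of the 13585 genes. Of 15 other ways of processing, 3 brought AHCY under the threshold: quantile normalization (adjusted p = 0.0421), TPM (0.0489) and voom on the reads (0.0457). Over the 15 the adjusted p ran from 0.0421 to 0.239 and the log2 change from 0.17 to 0.22, above 0 in every one. Reads of its pseudogenes were few, at most 8 in a library for AHCYP2 against 4447 to 5314 for AHCY.

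**Figure D2:**
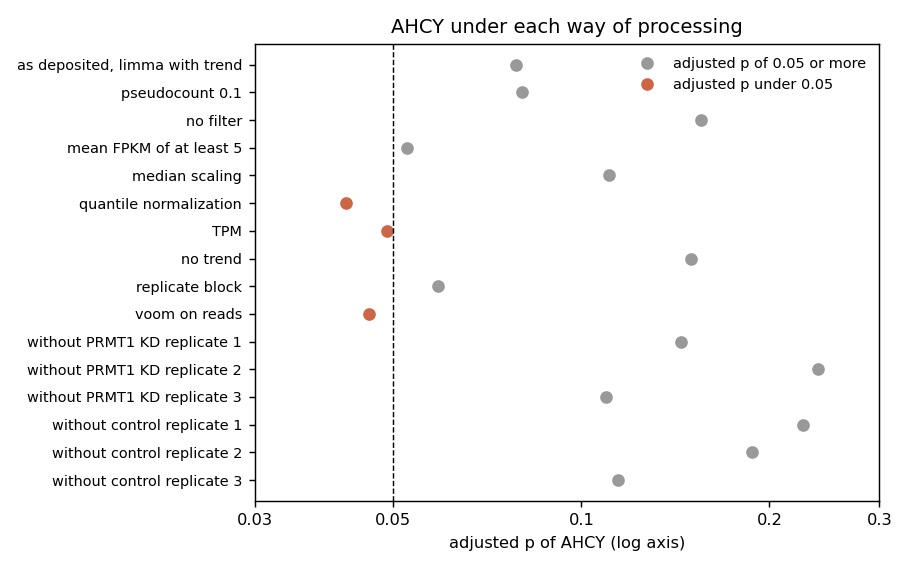
Each row is one way of processing, the horizontal log axis is the adjusted p of AHCY and the dashed line marks 0.05. Quantile normalization, TPM and voom lay under 0.05, and the deposited values lay above it at 0.0786.

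MTR, the vitamin B12-dependent methionine synthase, at chr1:236795281-236903981 on the plus strand, was at 10.05, 10.1 and 11.1 FPKM in control and 11.2, 11.6 and 12.1 in PRMT1 KD libraries. The groups did not overlap, but control replicate 3 lay just under KD replicate 1. The change on the log2 scale was 0.15 (95% interval 0.01 to 0.29, unadjusted p = 0.0411, adjusted p = 0.234). Over the 15 alternatives it ran from 0.12 to 0.19, and none brought MTR past the threshold (adjusted p 0.110 to 0.507).

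MTAP, the methylthioadenosine phosphorylase, is often lost in tumours together with its neighbour CDKN2A. At chr9:21802543-21937651 on the plus strand, it was at 2.81, 2.88 and 2.92 FPKM in control and 2.54, 2.83 and 3.05 in PRMT1 KD libraries, with 596 to 706 reads. The KD libraries lay on both sides of the controls. MTAP had a log2 change of -0.03 (95% interval -0.22 to 0.16, adjusted p = 0.890). It turned to 0.02 without KD replicate 1.

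Of the partners, BTG1 was the higher. BTG1, an antiproliferative protein often mutated in B cell lymphoma, at chr12:92140278-92145897 on the minus strand, was at 37.5, 36.4 and 36.8 FPKM in control and 33.8, 36.0 and 37.8 in PRMT1 KD libraries. The groups overlapped, with a log2 change of -0.04 (95% interval -0.16 to 0.08, adjusted p = 0.704), which was -0.0012 without KD replicate 1 and -0.08 without KD replicate 3. LINC01619 on the same strand shares 503 exon bases with it and AC025164.1 on the opposite strand 325, each at 30 reads or fewer.

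BTG2, a target of p53, at chr1:203305491-203309602 on the plus strand, was at 28.98, 25.3 and 25.5 FPKM in control and 29.3, 29.1 and 28.1 in PRMT1 KD libraries. Control replicate 1 lay among the KD libraries. The log2 change was 0.12 (95% interval -0.03 to 0.26, adjusted p = 0.353), and 0.18 without control replicate 1. The log2 ratio of BTG1 to BTG2, each as FPKM + 1, was 0.46 ± 0.0861 in control and 0.30 ± 0.106 in PRMT1 KD libraries (SD, n = 3), a difference of -0.16 with an exact permutation p of 0.2.

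The readers TDRD3 and SMNDC1, and JMJD6, overlapped between groups. TDRD3, which binds asymmetric dimethylarginine and works with topoisomerase TOP3B, at chr13:60396457-60573878 on the plus strand, was at 3.72, 3.14 and 3.94 FPKM in control and 3.55, 3.82 and 5.61 in PRMT1 KD libraries. Only KD replicate 3 was above the controls. The log2 change of 0.20 (95% interval -0.16 to 0.55, adjusted p = 0.519) was 0.03 without that library. It was 0.30 without KD replicate 1 and 0.12 without control replicate 2. With 392 to 662 reads, TDRD3 had the widest interval of the 10. TOP3B itself did not reach the mean of 1 FPKM needed for a test.

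SMNDC1, a splicing factor also called SPF30 whose Tudor domain binds dimethylarginine, at chr10:110290730-110304951 on the minus strand, was at 9.37, 10.2 and 10.8 FPKM in control and 9.66, 10.5 and 11.2 in PRMT1 KD libraries. The groups overlapped, with a log2 change of 0.04 (95% interval -0.13 to 0.22, adjusted p = 0.803), which turned below 0 without control replicate 1 or without KD replicate 3. JMJD6, also a lysyl hydroxylase of splicing factors, at chr17:76712832-76726799 on the minus strand, was at 15.4, 14.3 and 13.04 FPKM in control and 13.7, 13.4 and 13.5 in PRMT1 KD libraries. The KD values lay inside the range of the controls. The log2 change was -0.07 (95% interval -0.22 to 0.09, adjusted p = 0.617), which was -0.01 without control replicate 1 and -0.13 without control replicate 3.

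**Figure D3:**
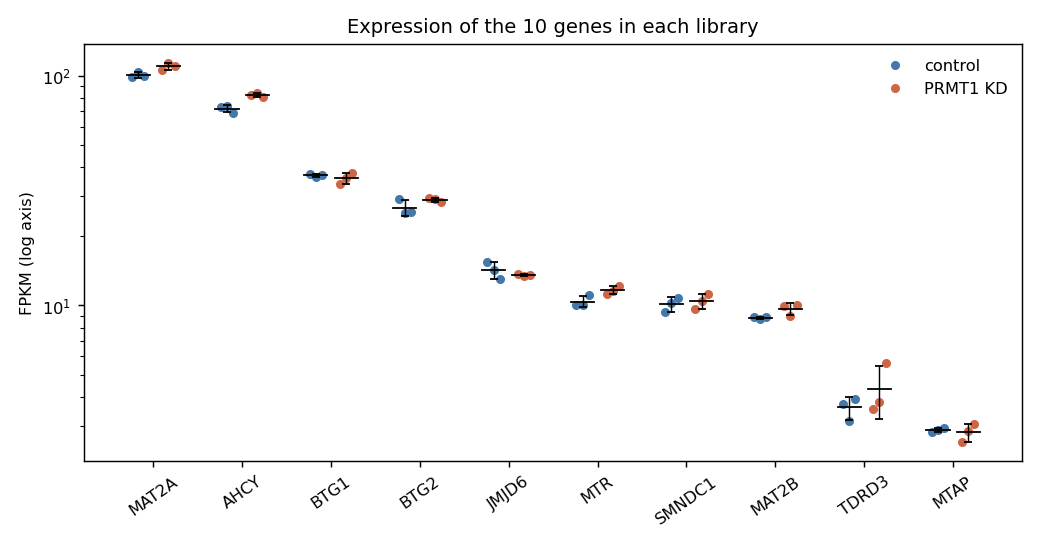
Points are libraries, 3 a group, the vertical log axis is FPKM, and bars are the mean and SD. AHCY, MAT2A, MAT2B and MTR had their 3 PRMT1 KD points above their 3 control points, and the other 6 genes overlapped.

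**Figure D4:**
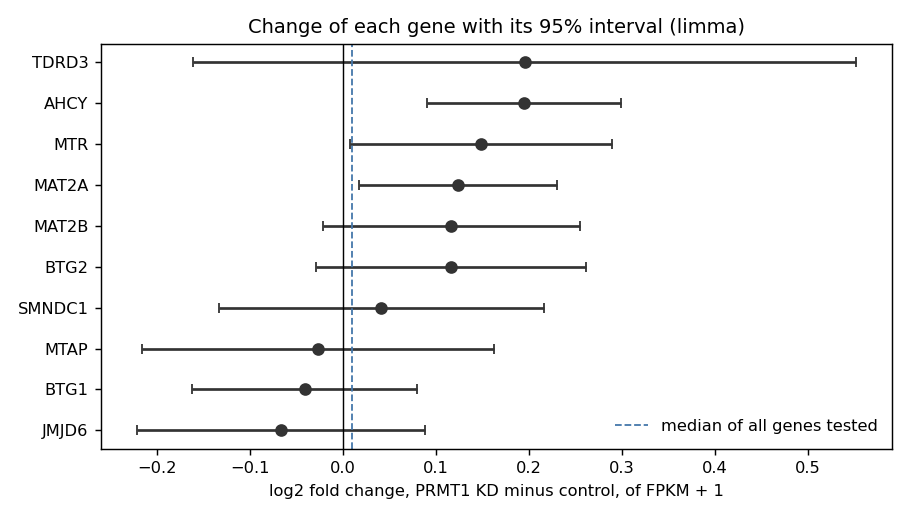
The horizontal axis is the log2 change of FPKM + 1 (PRMT1 KD minus control), bars are 95% limma intervals without adjustment for the number of genes, and the dashed line is the median of all genes, 0.0095. AHCY had the highest lower bound (0.09), and TDRD3 the widest interval.

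In control libraries the genes ranked, by mean FPKM, MAT2A (100.8), AHCY (72.006), BTG1 (36.9), BTG2 (26.6), JMJD6 (14.3), MTR (10.4), SMNDC1 (10.1), MAT2B (8.84), TDRD3 (3.60) and MTAP (2.87). Of the neighbours in that order, only MTR and SMNDC1 had overlapping control values. The length used spans all annotated exons of a gene. Per length of the principal transcript MAT2B came to 21.7, above JMJD6 at 16.1, so the order of these genes turns on the length taken.

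Promoters from RefSeq (GRCh38.p14, 250 bases before to 50 after each start) were matched for 9 of the 10 genes, in 14 windows. The window at the MAT2A start and the AHCY window at the start of its principal transcript are shown, chosen after the values were seen as the genes of SAM synthesis and of S-adenosylhomocysteine removal. Capitals mark CCAAT and GGGCGG on either strand, read 5′ to 3′ along the gene.
MAT2A promoter, chr2:85538918-85539217, plus strand: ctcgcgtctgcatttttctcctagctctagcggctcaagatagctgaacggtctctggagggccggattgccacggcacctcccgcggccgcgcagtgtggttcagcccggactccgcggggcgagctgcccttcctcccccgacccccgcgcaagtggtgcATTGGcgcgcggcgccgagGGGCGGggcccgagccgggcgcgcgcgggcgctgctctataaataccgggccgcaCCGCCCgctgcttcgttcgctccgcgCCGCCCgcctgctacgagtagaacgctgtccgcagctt
AHCY promoter, chr20:34303306-34303605, minus strand: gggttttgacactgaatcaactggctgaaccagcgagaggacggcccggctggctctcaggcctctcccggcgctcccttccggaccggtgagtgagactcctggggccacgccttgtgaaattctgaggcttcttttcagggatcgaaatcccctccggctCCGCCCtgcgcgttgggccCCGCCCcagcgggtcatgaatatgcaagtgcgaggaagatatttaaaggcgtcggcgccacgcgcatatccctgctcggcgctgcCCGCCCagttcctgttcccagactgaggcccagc
GGGCGG was in 9 of the 14 windows (64.3%), from 7 of the 9 genes, and in 45% of 35116 promoters. CCAAT was in 9 of the 14 windows (64.3%), from all matched genes but AHCY, and in 34.6% of promoters. CACGTG, the E-box, was in 1 window (SMNDC1) and in 7.26% of promoters, while TGACGTCA (1.85%) and TGATGNAA (3.62%) were in none of the 14 windows. A match is not a bound site.

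The wider pathways were described by 6 lists of 88 genes, none of them among the 10, of which 69 were tested. In all, 1 was called higher (1.07% of all genes) and 3 lower (0.986%), and the median log2 change of the 69 was 0.04.

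In the methionine and folate cycle, 1 of 16 tested genes was called higher and none lower, with 8 log2 changes above 0 and 8 below. SHMT1, the cytosolic serine hydroxymethyltransferase that feeds carbon into folate, was at 10.6, 11.4 and 10.9 FPKM in control and 13.5, 13.7 and 13.2 in PRMT1 KD libraries, without overlap, and rose by a log2 change of 0.27 (adjusted p = 0.0472). SHMT2, its mitochondrial counterpart, was at 148 ± 1.74 and 129 ± 3.97 FPKM (SD, n = 3), a log2 change of -0.19 that did not pass (adjusted p = 0.0646). It was called lower in 2 of the 15 alternatives, the filter at 5 FPKM (adjusted p = 0.0440) and voom (0.0131), over a range of 0.0131 to 0.234.

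In methionine salvage and polyamine synthesis, 2 of 13 tested genes were called lower and none higher, with 6 log2 changes above 0 and 7 below. SAT1, which acetylates spermidine and spermine for their breakdown and export, was at 5.17, 5.31 and 4.92 FPKM in control and 3.83, 3.53 and 3.47 in PRMT1 KD libraries. It fell by a log2 change of -0.41 (adjusted p = 0.0377) on 127 to 214 reads a library. AZIN1, which shields ornithine decarboxylase from antizyme, was at 38.5, 39.9 and 38.8 FPKM in control and 32.7, 33.7 and 33.6 in PRMT1 KD libraries, and fell by -0.22 (adjusted p = 0.0484). Neither gene overlapped between groups.

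Of the 5 tested small-molecule methyltransferases, 1 was called lower and none higher, with 2 log2 changes above 0 and 3 below. PEMT, which makes phosphatidylcholine with 3 methyl transfers from SAM, went from 44.9 ± 1.73 to 35.7 ± 1.26 FPKM (SD, n = 3), a log2 change of -0.32 (adjusted p = 0.0362). ICMT, which methylates prenylated proteins, was at 16.5 and 19.3 (log2 change 0.22, adjusted p = 0.158). SHMT1, SAT1, AZIN1 and PEMT each lost the call in all 6 fits that left out 1 library, with adjusted p from 0.0514 to 0.190. Over the 15 alternatives the adjusted p ran from 0.0167 to 0.190 for SHMT1, from 0.0108 to 0.182 for AZIN1 and from 0.00733 to 0.163 for PEMT. For SAT1, which the filter at 5 FPKM left out, it ran from 0.0191 to 0.164 over 14. SHMT1 kept the call in 4 of its alternatives, SAT1 in 5, AZIN1 in 6 and PEMT in 7. Besides the fits that left out a library and the replicate block, SHMT1 lost it without a filter (adjusted p = 0.0971), after median scaling (0.0587) or quantile normalization (0.0502) and without the trend (0.0844). SAT1, AZIN1 and PEMT also lost it without a filter (0.0971, 0.0880 and 0.0880) and without the trend (0.0559, 0.109 and 0.0787).

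Limma on the deposited FPKM, with the filter at 1 FPKM, called none of the 14 tested BTG/TOB and CCR4-NOT genes. It also called none of the 9 Tudor proteins and TDRD3 partners or the 12 other arginine methyltransferases and PRMT5 cofactors. At an unadjusted p under 0.05 there were 4, 1 and 3 of them, beside 19.5% of all genes. The deadenylase subunit CNOT6 was at 10.1 and 12.3 FPKM (log2 change 0.27, adjusted p = 0.0620), and was called in 2 of the 15 alternatives, the filter at 5 FPKM (adjusted p = 0.0369) and voom (0.0255), over a range of 0.0255 to 0.221. Its paralog CNOT6L was at 9.36 and 11.05 (0.22, adjusted p = 0.143). CARM1, which like PRMT1 makes asymmetric dimethylarginine, was at 18.2 and 21.4 FPKM (0.22, adjusted p = 0.180), and PRMT2 at 7.32 and 6.42 (-0.16, adjusted p = 0.210). FXR1, an RNA-binding partner of TDRD3, was at 13.7 and 16.3 (0.24, adjusted p = 0.225), and its log2 change was 0.15 without KD replicate 3.

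SMN1, the Tudor protein of the SMN complex, was at 5.77, 5.93 and 24.0 FPKM in control and 19.7, 17.8 and 26.4 in PRMT1 KD libraries, with 1 control library among the KD values. The log2 change was 1.06 (adjusted p = 0.289), and 1.68 (adjusted p = 0.0303) without control replicate 3, with adjusted p from 0.0303 to 0.579 over the 15 alternatives. Reads of SMN1 and its near-identical copy SMN2, which was at 3.29 and 3.84 FPKM, can be split between the copies, so both values are uncertain. In control replicates 1 to 3 SMN1 had 296, 296 and 1230 reads and SMN2 161, 161 and 165. In PRMT1 KD replicates 1 to 3 SMN1 had 1007, 793 and 1246 reads and SMN2 140, 199 and 189. The part of such splitting in the SMN1 values was not tested.

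**Figure D5:**
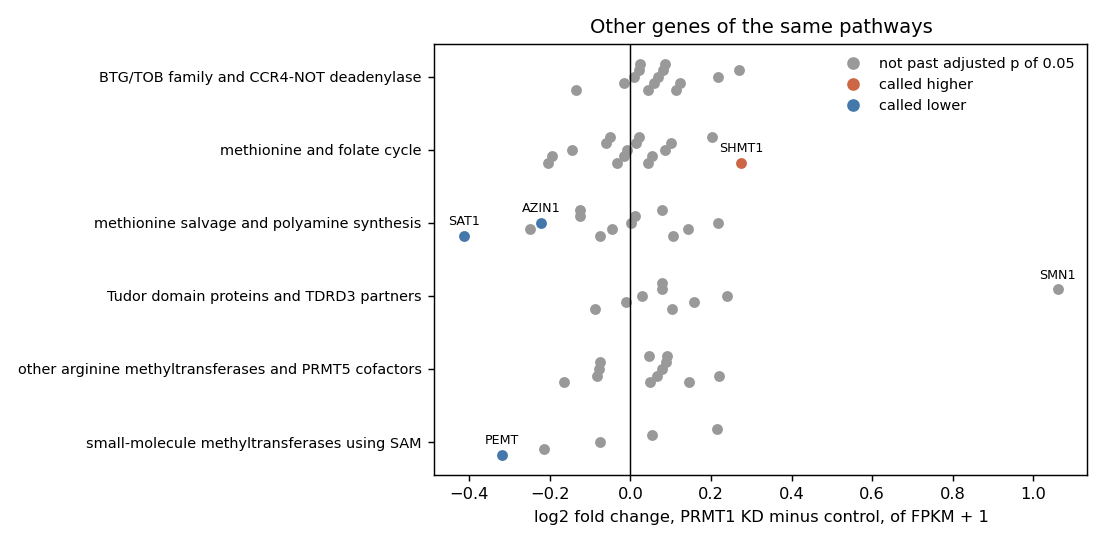
Each point is a tested gene of 1 list, and the horizontal axis is the log2 change of FPKM + 1 (PRMT1 KD minus control). SHMT1 was called higher (0.27), and SAT1 (-0.41), PEMT (-0.32) and AZIN1 (-0.22) were called lower.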

How the data were processed

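RNA of 6 MM.1S libraries was sequenced after TRIzol extraction. The authors deposited FPKM per gene and the gene length; the submitters' processing notes name featureCounts 1.5.0-p3 and hg38. The aligner, and whether counting used strand, are not given in the sources used here. Gene IDs and coordinates of all 58735 genes matched GENCODE release 29. Multiplied by gene length, the deposited FPKM gave whole reads in 100% of values within 0.01, and library sizes had been scaled by median-of-ratios size factors.

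Groups came from the labels. Genes with a mean of at least 1 FPKM were tested on log2(FPKM + 1), a scale that understates changes of low genes, with limma 3.58.1 (R 4.3.3) with a mean-variance trend, and p-values were adjusted over 13585 genes by Benjamini-Hochberg, called at an adjusted p under 0.05. The script was tested on simulated data. Exact permutation tests were two-sided. Intervals and reads cover these libraries and counting error only.

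The 10 genes and the lists were chosen with earlier results of these data known. From each list, genes past the threshold and the 2 with the smallest p were named; METTL16, GGCX, SMN2, ODC1 and SLAMF7 were named after their values were seen. Alternatives were the pseudocount (0.1), the filter (none, 5 FPKM), median, quantile and TPM scaling, no trend, the replicate number as a block, voom on the reads, and leaving out each library.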

Additional observations from a re-analysis of the deposited data

How the results depend on the processing

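The count of 279 genes called (145 higher, 134 lower) became 35 (15 and 20) without a filter, 473 (252 and 221) at 5 FPKM, 43 (15 and 28) without the trend and 890 (410 and 480) with voom. Called higher were 82 after median scaling and 222 as TPM. Leaving out each library gave 13 to 95 genes, 4 to 45 higher and 9 to 50 lower. Of the 10 genes, quantile normalization, TPM and voom each called 1, AHCY, and the other 12 alternatives none, though the filter at 5 FPKM left out MTAP and TDRD3. PRMT1 stayed past the threshold in all 15, at -2.23 to -2.09.

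Signs turned for MTAP (0.025 without KD replicate 1, range over left-out libraries -0.072 to 0.025), for SMNDC1 (-0.0057 without KD replicate 3, -0.0083 without control replicate 1, up to 0.092), and for the MAT2A to MAT2B ratio (-0.0033 at a pseudocount of 0.1, -0.063 to 0.054 over left-out libraries, including -0.015 and -0.0042). GGCX turned to -0.0082 after median scaling, -0.0020 after quantile normalization and -0.0082 with voom, and ran from -0.028 to 0.047 over left-out libraries, with -0.02 without control replicate 3. The cause was not tested.

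Same-numbered libraries deviated together with correlations of 0.02, 0.063 and 0.101, each the best of its library. For number 1 the margin was small: control replicate 1 gave 0.0200 with KD replicate 1 and 0.0186 with KD replicate 2. KD replicate 1 gave 0.0173 with control replicate 2. The match of numbers is a hint from the data and not the design, and no label says the number marks a pair. With the replicate block 204 genes were called (105 higher, 99 lower) and none of the 10. AHCY had an adjusted p of 0.0589, SHMT1 0.0552, SAT1 0.0545 and AZIN1 0.0548, and PEMT stayed past the threshold. Among the 10, MTAP and TDRD3 had the fewest reads, 392 to 706 a library.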

Other observations

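Of the polyamine genes, ODC1, the ornithine decarboxylase that starts the pathway and the enzyme AZIN1 shields, was chosen after its values were seen. It was at 128, 129 and 123 FPKM in control and 140, 150 and 151 in PRMT1 KD libraries, and the groups did not overlap. The log2 change was 0.22 (limma, adjusted p = 0.0684), and the adjusted p ran from 0.0223 to 0.218 over the 15 alternatives, 4 of which called it. ODC1 lay higher in 3 of 3 PRMT1 KD libraries, and SAT1, AZIN1, PAOX and ENOPH1 lay lower in 3 of 3. These were 5 of the 13 tested genes of the list, beside 25.9% of all genes without overlap. Over the 13, 6 log2 changes were above 0 and 7 below.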
